A study of Homo sapiens with 6 samples.

Results

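The factors described here are 8 transcription factors of hepatocyte identity, HNF4A, FOXA1, FOXA2, FOXA3, CEBPA, CEBPB, NR1H4 and ONECUT1. They were taken by gene name from a table of 23524 genes, and each was listed once. The libraries came from Hep G2, an established line from a human liver tumor. By their titles, 3 libraries were controls and 3 had overexpression of EFTUD2, a GTPase of the spliceosome. The study describes its Hep G2 cells with stable overexpression as infected with a lentivirus expressing EFTUD2. Their comparison cells carried a vector lentivirus, but the study does not say outright that the sequenced controls were these cells. By the study's methods, stably transduced cells were selected in puromycin, and the sources used here do not say whether a line was a pool or 1 clone. The study describes its data in general as coming from independent experiments, but the labels do not say whether these replicates were separate cultures, so p-values measure the spread between these libraries, which may be technical.

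Hepatocyte identity is held by a small circuit of DNA-binding proteins that activate each other and many of the same genes. FOXA proteins are forkhead pioneer factors that open liver chromatin early in development, HNF4A is the nuclear receptor that sustains the differentiated state, and ONECUT1 (HNF6) acts with both. C/EBP-alpha (CEBPA) drives metabolic genes and restrains proliferation, C/EBP-beta (CEBPB) takes a larger part in acute-phase and regenerative responses, and NR1H4 encodes FXR, the receptor for bile acids.

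Values are FPKM, fragments counted per gene and scaled to transcript length and library size. They summed to between 404342 and 434542 per library, and the read numbers behind them are unknown. EFTUD2 itself stood at 47.3 ± 6.65 FPKM in control and 106.3 ± 3.30 FPKM in EFTUD2 libraries (SD, n = 3 each). Its log2 fold change was 1.16 (SE 0.12, limma adjusted p = 0.13, and 0.028 without EFTUD2 replicate 3). The table does not separate vector transcripts from those of the cells' own gene. EFTUD2 replicate 3 stood apart. Over genes, its log2(FPKM + 1) values differed from those of replicates 1 and 2 with an SD of 0.51 and 0.60, whereas replicates 1 and 2 differed with an SD of 0.23 and the controls with 0.21 to 0.36. Results are therefore given with and without it.

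Of the 8 factors, 0 passed the test for a difference (limma on log2(FPKM + 1), Benjamini-Hochberg adjusted p under 0.05), as did 0% of the 17224 genes tested. CEBPB and NR1H4 were the only members whose EFTUD2 libraries all lay above all controls, each with an EFTUD2 mean 1.5 times the control mean. The mean log2 values of the other 6 were lower in EFTUD2 libraries, by 0.16 for FOXA3 to 0.35 for FOXA2, with overlapping groups. In bulk RNA such differences cannot be told apart from a different share of cells with the transcript. Thus 2 of 8 members were separated upward, against 7.93% of all genes tested, and 0 of 8 downward, against 19.4%. With an unadjusted p under 0.05 there were also 2 of 8, CEBPB and NR1H4, against 12.3% of all genes. When EFTUD2 replicate 3 was left out, 0 of 8 members were called and 0.973% of 17166 genes were.

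**Figure D1:**
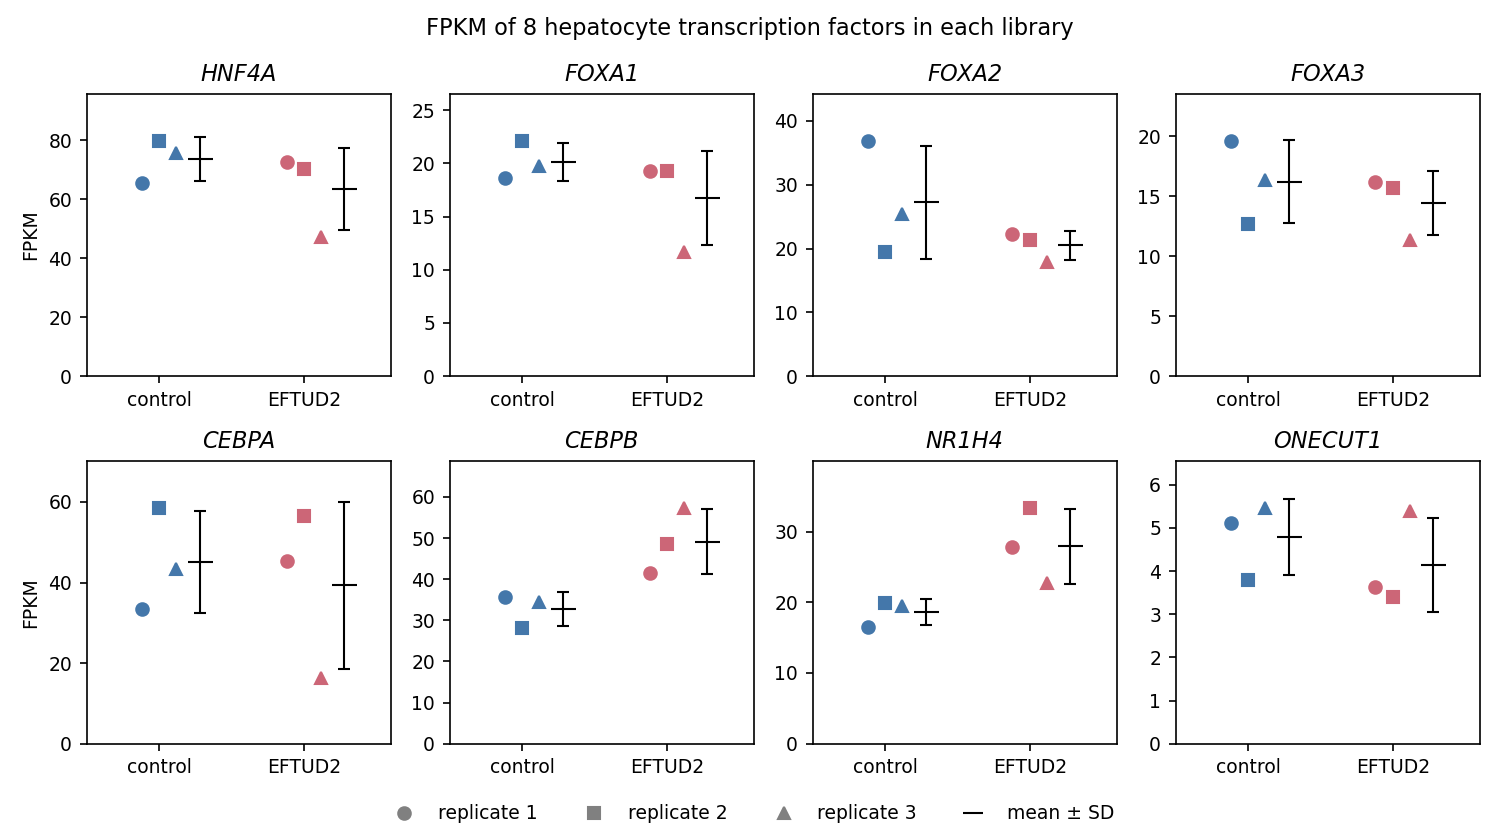
FPKM of each factor in the 3 control and 3 EFTUD2 libraries (symbols mark the replicate number, bars the mean ± SD, each vertical axis starting at 0). CEBPB and NR1H4 lie higher in every EFTUD2 library, and EFTUD2 replicate 3 is the lowest library for HNF4A, FOXA1, FOXA2, FOXA3 and CEBPA.

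The order of levels was led by HNF4A in both groups. In control libraries HNF4A (73.7 FPKM) was followed by CEBPA (45.1), CEBPB (32.7), FOXA2 (27.2), FOXA1 (20.2), NR1H4 (18.6), FOXA3 (16.2) and ONECUT1 (4.79 FPKM). Only the first and the last step of this order, HNF4A over CEBPA and FOXA3 over ONECUT1, separated all libraries of 1 gene from those of the next. In EFTUD2 libraries the mean of CEBPB (49.1 FPKM) stood before that of CEBPA (39.3), and that of NR1H4 (27.9) before FOXA2 (20.5). The place of CEBPB before CEBPA rested on replicate 3. In replicates 1 and 2 CEBPA (45.2 and 56.4 FPKM) was above CEBPB (41.5 and 48.5 FPKM). HNF4A no longer separated from the next gene, which also rested on replicate 3 (47.3 FPKM, against 72.5 and 70.4 in replicates 1 and 2). NR1H4 separated from FOXA2, and FOXA3 again from ONECUT1. Within single libraries HNF4A lay at the 91.8th to 94.9th percentile of the genes tested and ONECUT1 at the 42.0th to 53.9th.

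HNF4A (Entrez gene 3172, chromosome 20 from 44355699 to 44434596, GRCh38), the receptor that maintains hepatocyte gene expression, stood at 65.4, 79.9 and 75.6 FPKM in control replicates 1 to 3. In EFTUD2 replicates 1 to 3 it stood at 72.5, 70.4 and 47.3 FPKM. Replicates 1 and 2 thus lay within the control range and replicate 3 below it. The log2 fold change was -0.23 (SE 0.18, 95% interval -0.67 to 0.20, limma adjusted p = 0.55), and without replicate 3 it was -0.04 (SE 0.11). HNF4A is transcribed from alternative start sites, one of which, the downstream one, is the promoter known for its use in adult liver, and the table gives a single value for all transcripts. Both promoters are shown to place these sites in sequence, each with the 250 bases before a RefSeq start (assembly GRCh38.p14, plus strand). Capitals mark matches to ATCAAT, the core bound by ONECUT proteins, on either strand.
HNF4A upstream promoter, chr20:44355449-44355698: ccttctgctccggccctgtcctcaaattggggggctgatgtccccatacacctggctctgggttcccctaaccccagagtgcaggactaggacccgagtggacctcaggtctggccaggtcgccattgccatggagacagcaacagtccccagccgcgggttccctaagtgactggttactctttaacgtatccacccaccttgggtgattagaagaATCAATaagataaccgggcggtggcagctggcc
HNF4A downstream promoter, chr20:44400989-44401238: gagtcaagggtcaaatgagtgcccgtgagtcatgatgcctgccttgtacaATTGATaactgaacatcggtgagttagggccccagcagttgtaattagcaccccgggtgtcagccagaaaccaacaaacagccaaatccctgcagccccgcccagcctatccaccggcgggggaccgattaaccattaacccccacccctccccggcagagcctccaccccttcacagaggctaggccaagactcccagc
The downstream window held 1 ONECUT core, 200 bases before its start site. The upstream window held 1 ONECUT core, 33 bases before its start. Of 35116 windows of the same kind in the RefSeq table, 5.58% held ATCAAT. Matches are descriptions of the letters and not bound sites. ONECUT1, whose product recognizes this core, is described below. The antisense gene HNF4A-AS1 lies within the HNF4A locus and is not among the genes listed, and the strand setting of the counting is not given in the sources used here, so antisense reads cannot be told apart.

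The FOXA genes differed from each other in their spread. FOXA1 (Entrez gene 3169, chromosome 14 from 37589552 to 37595249) was even among controls, at 18.6, 22.1 and 19.7 FPKM, with 19.3, 19.3 and 11.7 FPKM across EFTUD2 replicates 1 to 3. EFTUD2 replicates 1 and 2 were within the control range, and replicate 3 was 0.579 times the control mean. Its log2 fold change was -0.28 (SE 0.20, limma adjusted p = 0.51) and moved to -0.06 without replicate 3. FOXA2 (Entrez gene 3170, chromosome 20 from 22580998 to 22585490) varied most among controls, with 36.9, 19.5 and 25.4 FPKM, against 22.3, 21.4 and 17.9 FPKM in the EFTUD2 libraries. Control replicate 1 set its mean apart, since the other controls bracketed EFTUD2 replicates 1 and 2. The log2 fold change of FOXA2 was -0.35 (SE 0.23, limma adjusted p = 0.48), and over the fits that each left out 1 library it ran from -0.56 to -0.12, the latter without control replicate 1. FOXA3 (Entrez gene 3171, chromosome 19 from 45864326 to 45873797), the FOXA gene most tied to differentiated hepatocytes, was at 19.6, 12.7 and 16.3 FPKM in the controls. It was at 16.2, 15.7 and 11.3 FPKM in the EFTUD2 libraries, so that the log2 fold change was -0.16 (SE 0.20, limma adjusted p = 0.71). The groups overlapped, and without EFTUD2 replicate 3 the difference was 0.00.

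As shares of the summed FPKM of the 3 FOXA genes, a comparison per transcript length that does not depend on library scaling, FOXA2 made up 49.1%, 35.8% and 41.3% in controls and 38.6%, 37.9% and 43.7% in EFTUD2 libraries. FOXA1 made up 24.8% to 40.8% in controls and 28.6% to 34.2% in EFTUD2 libraries. FOXA3 held the narrowest range of shares, at 26.1%, 23.4% and 26.6% in controls and 28%, 27.9% and 27.7% in EFTUD2 libraries. The summed level was 54.3 to 75.2 FPKM in controls and 57.7, 56.4 and 40.9 FPKM in EFTUD2 replicates 1 to 3, so only replicate 3 fell outside the control range. The FOXA3 share was thus slightly higher in every EFTUD2 library than in any control, and the shares of FOXA1 and FOXA2 overlapped.

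CEBPA (Entrez gene 1050, chromosome 19 from 33299934 to 33302534), which encodes C/EBP-alpha, was the most variable member. The controls had 33.4, 58.5 and 43.3 FPKM and EFTUD2 replicates 1 to 3 had 45.2, 56.4 and 16.3 FPKM. Replicates 1 and 2 lay inside the control range, whereas replicate 3 was 0.320 times their mean. The log2 fold change of -0.33 (SE 0.45, 95% interval -1.40 to 0.75, limma adjusted p = 0.73) turned to 0.20 without replicate 3, so the direction for CEBPA rested on that library. CEBPB (Entrez gene 1051, chromosome 20 from 50190583 to 50192690), which encodes C/EBP-beta, measured 35.7, 28.1 and 34.4 FPKM in the control group, and its EFTUD2 replicates 1 to 3 measured 41.5, 48.5 and 57.3 FPKM. Every EFTUD2 library was above every control, and replicate 3 was the highest (p = 0.1 in a two-sided exact permutation test, the smallest that 3 against 3 can give). Its log2 fold change was 0.57 (SE 0.15, 95% interval 0.20 to 0.93), at rank 342 by p of 17224 genes, with an adjusted p of 0.40 from limma. Without replicate 3 it was 0.45 (SE 0.13, adjusted p = 0.18), and across settings it ranged from 0.042 to 0.68.

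The promoters of the C/EBP genes, shown because these close relatives differed in pattern, are given as the 250 bases before a RefSeq start. Capitals mark TTGCGC, a core that C/EBP proteins bind, and TATAAA, the TATA box, on either strand. The CEBPA sequence is on the minus strand. For CEBPB, which has 2 starts in the table, the one with a TATA box is shown, on the plus strand.
CEBPA promoter, chr19:33302535-33302784: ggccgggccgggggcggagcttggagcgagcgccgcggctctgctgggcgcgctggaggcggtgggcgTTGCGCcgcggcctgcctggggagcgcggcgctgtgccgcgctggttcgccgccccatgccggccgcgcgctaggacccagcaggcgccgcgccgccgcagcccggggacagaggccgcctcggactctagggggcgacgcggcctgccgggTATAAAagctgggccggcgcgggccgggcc
CEBPB promoter, chr20:50190580-50190829: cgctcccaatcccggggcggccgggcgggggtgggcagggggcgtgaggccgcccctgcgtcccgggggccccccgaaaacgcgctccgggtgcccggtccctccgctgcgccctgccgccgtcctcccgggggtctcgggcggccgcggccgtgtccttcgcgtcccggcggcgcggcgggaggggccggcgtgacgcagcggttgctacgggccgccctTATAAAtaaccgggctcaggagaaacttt
Both windows held a TATA box, which starts 30 bases before the CEBPA start and 29 bases before the CEBPB start. The CEBPB window was chosen for this match, and the window of the other CEBPB start held none. Of all windows, 10.7% held TATAAA, a share that is no comparison for a window so chosen. The CEBPA window also held TTGCGC 182 bases before its start, a sequence found in 6.34% of windows. Among the windows of the 7 members that had one, 0 held the STAT site TTCNNNGAA (6.57% of all windows) and 0 held the HNF4 site CAAAGTCCA (0.325% of all windows). The antisense gene CEBPB-AS1 overlaps CEBPB and is not among the genes listed, so reads of the antisense strand cannot be told apart from those of CEBPB.

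Within libraries, CEBPB stood at 1.07, 0.480 and 0.795 times CEBPA in controls and at 0.918, 0.860 and 3.52 times in EFTUD2 replicates 1 to 3. The groups overlapped, and the mean log2 ratio differed by 0.92 (exact permutation test, two-sided p = 0.4). It was 0.26 without replicate 3, which thus held most of the difference. Relative to HNF4A, a ratio chosen after its values were seen, CEBPB stood at 0.546, 0.351 and 0.455 in controls and at 0.572, 0.689 and 1.21 in EFTUD2 libraries. Here the groups did not overlap (log2 difference 0.82, and 0.50 without replicate 3, exact permutation test, two-sided p = 0.1).

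NR1H4 (Entrez gene 9971, chromosome 12 from 100473866 to 100564414), which encodes the bile acid receptor FXR, measured 16.6, 19.9 and 19.4 FPKM in the control group, against 27.8, 33.3 and 22.7 FPKM in EFTUD2 replicates 1 to 3. The controls lay close together, and even the lowest EFTUD2 library, replicate 3, was above the highest control (p = 0.1, two-sided exact permutation test). The log2 fold change was 0.55 (SE 0.16, 95% interval 0.17 to 0.93), at rank 467 by p, with an adjusted p of 0.40 from limma. Without replicate 3 it was 0.68 (SE 0.12) and the adjusted p was 0.07, with a range of 0.011 to 0.68. The ratio of NR1H4 to HNF4A, also chosen after its values were seen, was nearly the same in the 3 controls, at 0.253, 0.249 and 0.257. In EFTUD2 replicates 1 to 3 it was 0.383, 0.473 and 0.480. These groups were separated in a measure that does not depend on library scaling (log2 difference 0.81, exact permutation test, two-sided p = 0.1), and replicate 3 did not stand apart from the other EFTUD2 libraries in it.

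The 250 bases before the RefSeq start of NR1H4 at 100503360 on chromosome 12 (plus strand) are shown because this member differed in the same direction in every library. This start lies inside the gene, which begins at 100473866, and the bases before that upstream end are not shown. Capitals mark TGTTTA, the core of forkhead sites, on either strand.
NR1H4 promoter, chr12:100503110-100503359: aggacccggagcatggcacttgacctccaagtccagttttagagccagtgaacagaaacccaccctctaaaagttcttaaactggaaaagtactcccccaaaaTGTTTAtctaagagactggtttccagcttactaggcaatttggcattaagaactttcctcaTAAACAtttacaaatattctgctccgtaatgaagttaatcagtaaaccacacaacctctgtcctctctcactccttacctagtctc
The forkhead core occurred 2 times, from 147 and 86 bases before the start, and in 11.0% of all windows. This window had a GC content of 42.0%, against a median of 58.0% over all windows and 81.2% for CEBPA.

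When limma weighted each library by its agreement with its group, CEBPB and NR1H4 passed the threshold (adjusted p of 0.042 and 0.011), as did 7.23% of all genes, but the estimation of these weights stopped before it converged. The values of both genes were higher in EFTUD2 libraries under each of the 16 alternative settings. Under 3 other scalings of the libraries the groups of CEBPB and NR1H4, and of no other member, were separated. Over all genes, the shares separated upward and downward were then 11.9% and 12.1% with median of ratios scaling, 9.45% and 15.6% with quantile normalization, and 6.83% and 23.0% with a common sum.

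**Figure D2:**
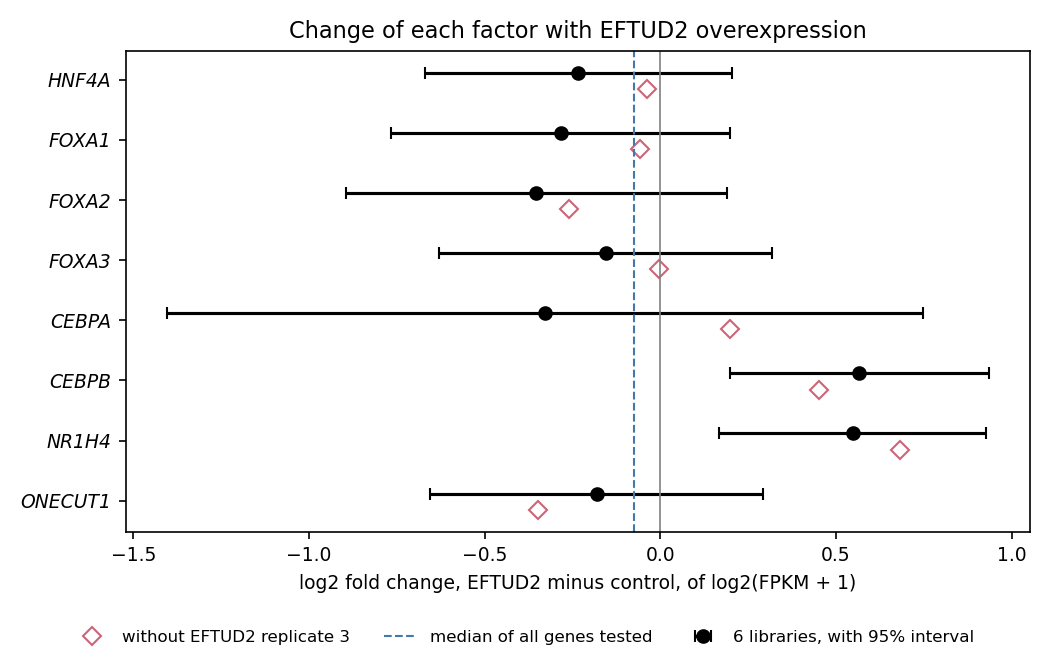
Log2 fold change of each factor, EFTUD2 minus control, on the log2(FPKM + 1) scale, with 95% intervals from limma (black), and the value without EFTUD2 replicate 3 (open diamonds). The intervals of CEBPB and NR1H4, unadjusted for the number of genes, lie above 0, the other 6 cross 0, and CEBPA changes side without replicate 3.

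**Figure D3:**
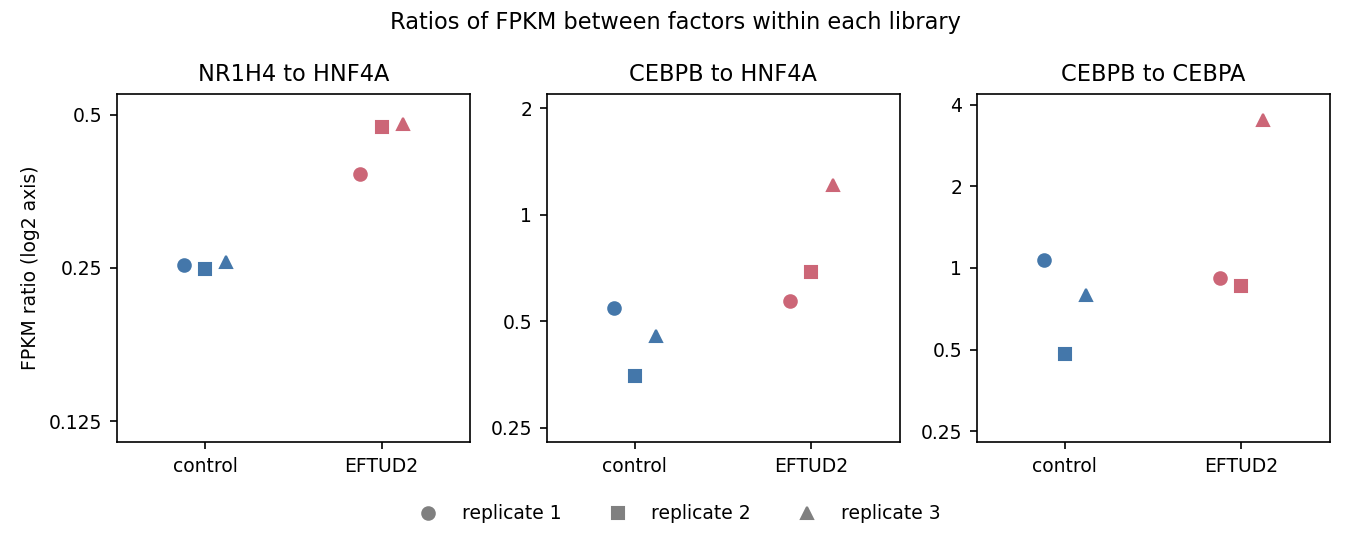
Ratios of FPKM between pairs of factors within each library, on log2 axes, with symbols for the replicate number. The ratio of NR1H4 to HNF4A is 0.249 to 0.257 in controls and 0.383 to 0.480 in EFTUD2 libraries, whereas the ratio of CEBPB to CEBPA overlaps between groups except for 3.52 in EFTUD2 replicate 3.

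ONECUT1 (Entrez gene 3175, chromosome 15 from 52755053 to 52790336), a cut-homeodomain factor of liver and biliary development, was the lowest member. It was at 5.12, 3.80 and 5.46 FPKM in controls and at 3.63, 3.40 and 5.40 FPKM in EFTUD2 libraries. Here replicate 3 was the one that resembled the controls, while replicates 1 and 2 lay below all of them. The log2 fold change was -0.18 (SE 0.20, limma adjusted p = 0.66) and was -0.35 without replicate 3 (SE 0.15, adjusted p = 0.32). Its paralog ONECUT2, of the wider list described below, stood at 3.28, 3.6 and 3.06 FPKM in controls and at 4.0, 4.83 and 6.33 FPKM in EFTUD2 libraries (log2 fold change 0.47, SE 0.17, limma adjusted p = 0.40). The groups of ONECUT2 did not overlap, with higher values in the EFTUD2 libraries.

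Among the 8 factors, 5 had their lowest value in EFTUD2 replicate 3, which was the lowest library for 45.7% of all genes tested. Relative to the mean of EFTUD2 replicates 1 and 2, replicate 3 stood at 0.662 for HNF4A, 0.605 for FOXA1, 0.819 for FOXA2, 0.712 for FOXA3, 0.743 for NR1H4 and 0.320 for CEBPA. CEBPB (1.27) and ONECUT1 (1.54) were higher there. This ratio, over the 12556 genes that averaged 1 FPKM or more, had a median of 0.848 (quartiles 0.653 and 1.11), so HNF4A, FOXA2, FOXA3 and NR1H4 lay between the lower quartile and the median, and FOXA1 and CEBPA below the lower quartile.

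Across the 6 libraries, HNF4A, FOXA1 and CEBPA followed each other closely, with Pearson r of 0.985 for HNF4A and FOXA1, 0.95 for HNF4A and CEBPA and 0.949 for FOXA1 and CEBPA. CEBPB ran against HNF4A (r = -0.793). NR1H4 and HNF4A had an r of 0.005, a value that pools groups with different levels of NR1H4. Within the controls alone the ratio of NR1H4 to HNF4A was nearly the same, at 0.249 to 0.257. FOXA2 and FOXA3 formed another pair (r = 0.902). The values of r describe 6 libraries that share the offset of EFTUD2 replicate 3. That pattern was common, since 1152 of 12555 other genes had an r over 0.95 with HNF4A, 1649 with FOXA1 and 848 with CEBPA. For NR1H4 there were 82, for CEBPB 70, for FOXA2 49, for FOXA3 30 and for ONECUT1 17.

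The genes most like HNF4A were MLKL (r = 0.999) and LNPEP (r = 0.999), and those most like FOXA1 were POLR1A and EIF4G2 (both 0.999). For CEBPA they were DRG2 and CHMP2B (0.9997 and 0.9996), for FOXA2 SNAPC5 (0.996) and PPP6R2 (0.990), and for FOXA3 ARHGAP39 and RRBP1 (both 0.976). For CEBPB they were FLOT1 (0.995) and TMPRSS2 (0.993), and for ONECUT1 DGKA (0.981) and AXIN1 (0.978). NR1H4 was most like APOL6 (0.998), at 2.48, 3.36 and 3.22 FPKM in controls and 5.33, 6.46 and 4.08 FPKM in EFTUD2 libraries, and VLDLR (0.993), the receptor for very low density lipoprotein. Like NR1H4, APOL6 was highest in EFTUD2 replicate 2 and separated the groups.

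Of a wider list of 27 liver transcription factors, all tested, 12 had a higher and 15 a lower mean log2 value in EFTUD2 libraries, with a median log2 fold change of -0.05, against -0.07 over all genes tested, and 0 were called. With median of ratios scaling 16 were higher and 11 lower, with quantile normalization 15 and 12, and without EFTUD2 replicate 3 also 15 and 12, but these settings also moved the median of all genes, to 0.002, -0.03 and -0.04. The median of the list was then 0.04, 0.07 and 0.03. With a common sum per library it was -0.07, against -0.11 over all genes. The groups did not overlap for 2 factors that were higher, CEBPD and ONECUT2, a share of 7.41%, close to the 7.93% of all genes tested. CEBPD, which encodes the C/EBP-delta protein of the acute-phase response, was at 28.4, 15.4 and 33.3 FPKM in controls and 41.9, 48.6 and 43.2 FPKM in EFTUD2 libraries (log2 fold change 0.84, SE 0.27, limma adjusted p = 0.40). CEBPD thus shared the direction of CEBPB. DBP, a clock-controlled factor, was the third by size (log2 fold change 0.35), with overlapping groups.

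All EFTUD2 libraries lay below all controls for 3 of the wider factors, NR1I2, NR5A2 and GATA4, the last chosen after its values were seen. This share of 11.1% was below the 19.4% of all genes tested. NR1I2, the xenobiotic receptor PXR, was at 6.80, 8.77 and 7.61 FPKM against 5.85, 5.73 and 3.97 FPKM (log2 fold change -0.51, SE 0.17, limma adjusted p = 0.40). NR5A2, a nuclear receptor that takes part in bile acid and cholesterol metabolism, was at 4.25, 3.48 and 3.91 FPKM against 2.51, 2.74 and 2.9 FPKM (log2 fold change -0.39, SE 0.13, limma adjusted p = 0.40). NR1I2 and NR5A2 kept these signs without replicate 3 (log2 fold changes of -0.36 and -0.43). ATF5, a leucine zipper factor of the stress response, had the most negative value of the list with all libraries (log2 fold change -0.63, limma adjusted p = 0.42), and its groups overlapped. Without EFTUD2 replicate 3 it was -0.28, less negative than that of NR5A2. RXRA, the retinoid receptor that pairs with FXR, was added after its values were seen. It differed little, at 17.5 to 19.8 FPKM in controls and 18.4 to 20.2 FPKM in EFTUD2 libraries.

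Genes known as targets of the 8 factors were taken from 4 lists, which share members such as HP, PCK1 and TTR. The counts of the lists are therefore not independent of each other. In the C/EBP list 15 of 18 genes could be tested, 14 had a higher and 1 a lower mean in EFTUD2 libraries, 7 were separated upward (46.7%) and 0 were called (median log2 fold change 0.84). Among those 7 were SAA1 and G0S2, at no more than 2.11 and 0.81 FPKM in any library, named after their values were seen. CEBPD, a factor of the wider list above, was also among them, and its log2 fold change is the median of this list. Of all genes tested, 37.3% had a higher mean, 7.93% were separated upward and 19.4% downward. Counts of 14 and 1 were also found under each of 3 other scalings, and 12 and 3 without EFTUD2 replicate 3, with a median of 0.71. HP, the acute-phase hemoglobin scavenger haptoglobin, was at 87.8, 111.2 and 182.3 FPKM in controls and 447.7, 689.7 and 301.7 FPKM in EFTUD2 libraries (log2 fold change 1.89, SE 0.37, limma adjusted p = 0.28). SAA2, an acute-phase apolipoprotein, was at 0.55, 0.07 and 0.37 FPKM in controls and 1.63, 4.41 and 7.49 FPKM in EFTUD2 libraries. SAA2 shared with CEBPB its highest value in EFTUD2 replicate 3, whereas HP had its lowest EFTUD2 value there. HAMP, which encodes the iron hormone hepcidin, overlapped between groups, with 7.17 to 78.4 FPKM in controls and 63.6 to 136.9 FPKM in EFTUD2 libraries. TRIB1, which encodes a pseudokinase that promotes the breakdown of C/EBP-alpha, was the gene with a lower mean (log2 fold change -0.26, and -0.41 without replicate 3).

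In the FOXA list, 11 of 14 genes had a higher mean, 6 were separated upward (42.9%, against 7.93% of all genes) and 0 were called (median log2 fold change 0.35, and 0.25 without EFTUD2 replicate 3). With quantile normalization 3 were separated upward and 1 downward (21.4% and 7.14%, against 9.45% and 15.6% of all genes). Among the 6 separated upward in the FPKM as deposited, HP and CPS1 were also in the C/EBP list. APOB and SERPINA1 were also in the list of targets of HNF4A and related factors below. CPS1, APOB and SERPINA1 were named after their values were seen. Besides HP, the largest values were those of PCK1, the rate-limiting enzyme of gluconeogenesis, and IGFBP1. PCK1 was at 8.13, 1.0 and 3.67 FPKM in controls and 5.07, 3.63 and 54.7 FPKM in EFTUD2 libraries, so its log2 fold change of 1.40 fell to 0.27 without replicate 3. IGFBP1, a secreted binder of insulin-like growth factors, was at 200.4, 37.3 and 183.0 FPKM against 301.0, 217.6 and 217.9 FPKM, with separated groups. The 3 genes with a lower mean were AFP, TTR and APOA2. AFP, the fetal albumin of hepatoblasts and liver tumors, was at 2499.3, 845.7 and 1356.5 FPKM in controls and 869.8, 744.9 and 1918.5 FPKM in EFTUD2 libraries, and TTR, the thyroid hormone carrier, at 39.4, 24.3 and 29.2 FPKM against 19.1, 20.5 and 38.7 FPKM. For both, EFTUD2 replicate 3 lay within the control range. Replicates 1 and 2 lay below all controls for TTR, as did replicate 2 for AFP. For AFP the log2 fold change was -0.40, and -0.82 without replicate 3, and that of TTR -0.28, and -0.59 without it.

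In a list of targets of HNF4A and related factors, 28 genes were tested. Of these, 21 had a higher mean, 7 were separated upward (25%, against 7.93% of all genes), 1 downward (3.57%, against 19.4%) and 0 were called. The median log2 fold change was 0.26, and 0.09 without EFTUD2 replicate 3, where 16 were higher and 12 lower. With quantile normalization 4 were separated upward and 2 downward (14.3% and 7.14%, against 9.45% and 15.6% of all genes). APOH, a plasma glycoprotein that binds phospholipids, was at 489.2, 327.5 and 425.3 FPKM in controls and 626.4, 696.1 and 750.3 FPKM in EFTUD2 libraries (log2 fold change 0.75, SE 0.18, limma adjusted p = 0.39). FABP1, the hepatocyte fatty acid binding protein, ran from 61.4 to 389.6 FPKM in controls and from 248.9 to 434.5 FPKM in EFTUD2 libraries, with overlapping groups. SLC2A2, the hepatocyte glucose transporter, and PROC, the anticoagulant protein C, had lower means (log2 fold changes of -0.22 and -0.20), also with overlap, and stood at -0.05 and -0.12 without replicate 3. The gene separated downward was CYP3A4, chosen after its values were seen, which was at or under 0.14 FPKM in all libraries. 

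In the FXR list, 18 of 21 genes could be tested, 10 had a higher and 8 a lower mean, 5 were separated upward (27.8%, against 7.93% of all genes), 2 downward (11.1%, below the 19.4% of all genes) and 0 were called (median log2 fold change 0.09, and 0.17 without EFTUD2 replicate 3, where 13 were higher and 5 lower). Genes on this list thus differed in direction, and NR1H4 itself was higher in each EFTUD2 library. The list was not divided into genes that FXR activates and genes that it represses, so these counts give no direction of FXR activity. NR0B2 (SHP), the corepressor that FXR induces, was at 76.6, 52.5 and 68.7 FPKM in controls and 54.8, 54.6 and 44.7 FPKM in EFTUD2 libraries (log2 fold change -0.34, SE 0.17, limma adjusted p = 0.41). SLC51A, a subunit of the basolateral bile acid exporter, was at 8.27, 8.82 and 8.64 FPKM against 7.75, 8.05 and 5.15 FPKM and was separated downward, as was BAAT, the enzyme that conjugates bile acids, chosen after its values were seen. For SLC51A the log2 fold change was -0.28, and -0.11 without replicate 3. UGT2B4 had a lower mean with overlap. KNG1, kininogen, was at 0.79, 0.56 and 0.67 FPKM in controls and 1.58, 2.79 and 9.76 FPKM in EFTUD2 libraries (log2 fold change 1.5, SE 0.49, limma adjusted p = 0.40). Without replicate 3 it was 0.90 (limma adjusted p = 0.085). The fibrinogen genes FGB and FGA had higher means with overlapping groups (log2 fold changes of 0.67 and 0.65). The others separated upward, all chosen after their values were seen, were FGG, FETUB, APOC2 and SLC27A5. The bile salt pump ABCB11, the uptake carrier SLC10A1 and the hormone FGF19 were under the limit for a test, at no more than 0.12 FPKM in any library.

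**Figure D4:**
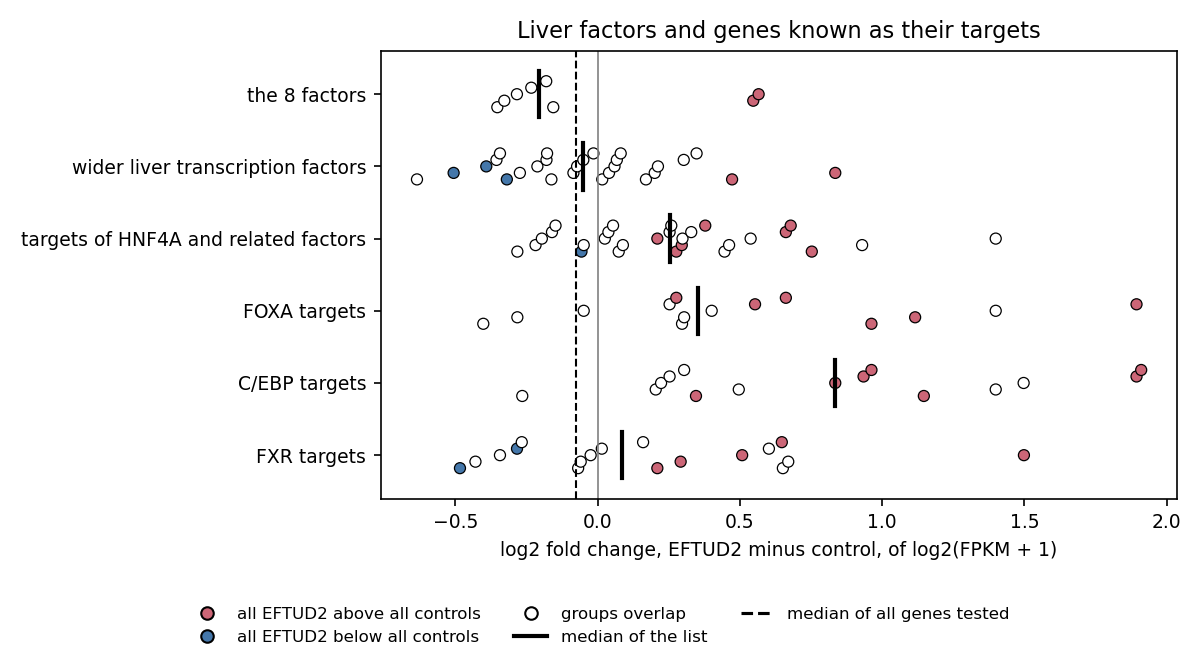
Log2 fold change (EFTUD2 minus control, log2(FPKM + 1) scale) of each tested gene in the 8 factors, the wider factors and the 4 target lists, with filled points where all EFTUD2 libraries lie above (red) or below (blue) all controls. The median is -0.21 for the 8 factors and 0.84 for the C/EBP targets, and the dashed line is the median of all genes tested at -0.07.

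Markers of cell types were summed per library to read the label of the cells beside these factors. Of 24 hepatocyte markers, 22 were tested and 19 had a higher mean in EFTUD2 libraries, and their summed level was 9741 to 15495 FPKM in controls and 13986 to 20856 FPKM in EFTUD2 libraries. ALB had the highest single value, in EFTUD2 replicate 3. SERPINA1 was higher than ALB in EFTUD2 replicates 1 and 2 and also in control replicates 2 and 3. Genes of hepatocyte secretion were thus present at high levels, whereas SLC10A1, a marker of mature hepatocytes, was near 0. Biliary markers summed to 851.4 to 1226 FPKM and 966.1 to 1805 FPKM (7 of 12 tested higher), with CFTR at 0. SPP1 had the highest values of this list, at 173.1, 441.2 and 455.1 FPKM in controls and 1154, 1210 and 521.4 FPKM in EFTUD2 libraries. KRT19, the next by its highest value, was at 314.1 to 372.7 FPKM in controls and 102.5 to 163.0 FPKM in EFTUD2 libraries. The sum thus gives no common direction for biliary markers. Fibroblast markers summed to 26.7 to 38.6 FPKM and 46.0 to 89.0 FPKM (5 of 6 tested higher), with COL1A2 at 0. ACTA2 led this list in the controls (26.1 to 36.8 FPKM), where VIM was at 0.06 to 0.12 FPKM, and EFTUD2 replicates 1 to 3 had 23.2, 59.6 and 2.87 FPKM of VIM. Squamous and basal markers summed to 42.3 to 60.7 FPKM and 44.5 to 205.9 FPKM (5 of 6 tested higher), with KRT5 at 0. SFN led this list in the controls (33.5 to 50.1 FPKM), where KRT17 was at 1.12 to 1.8 FPKM, and EFTUD2 replicates 1 to 3 had 66.9, 135.1 and 9.29 FPKM of KRT17. Macrophage markers summed to 20.3 to 34.4 FPKM and 29.4 to 38.0 FPKM (3 of 4 tested higher), with TYROBP at 0, and endothelial markers to 20.6 to 23.3 FPKM and 7.51 to 14.6 FPKM (4 of 9 tested higher). Most of each sum was 1 gene. CD68 led the macrophage list, at 16.7 to 30.9 FPKM in controls and 24.0 to 33.4 FPKM in EFTUD2 libraries. ESAM led the endothelial list, at 14.5 to 15.9 FPKM in controls and 3.75 to 8.20 FPKM in EFTUD2 libraries. No other gene of these lists exceeded 2.62 FPKM. Without EFTUD2 replicate 3, limma called 7 of these markers, in both directions, and 0.973% of all 17166 genes. They were 3 of 12 biliary, 1 of 6 fibroblast, 1 of 9 endothelial and 2 of 6 squamous and basal markers tested. Of the 22 hepatocyte and 4 macrophage markers tested, 0 were called. KRT7, VIM and KRT17 were higher (log2 fold changes of 4.36, 5.14 and 5.33), and KRT19, SOX4, ESAM and S100A2 were lower (-1.13, -1.31, -1.03 and -1.16). KRT7 and KRT19, both biliary keratins, thus differed in opposite directions without replicate 3. In EFTUD2 replicate 3 KRT7 was at 0.78 FPKM, within its control range of 0.61 to 1.34 FPKM. KRT19 was lower in every EFTUD2 library than in any control. The 7 called markers were named after their values were seen. The part of these marker levels in the values of the 8 factors was not tested.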

How the data were processed

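For 6 Hep G2 libraries (3 control, 3 EFTUD2), RNA-Seq was run on a BGISEQ-500 by the authors, who deposited 1 table of FPKM values per gene and library, rounded to 2 decimals. The submitters' processing notes name hg38, HISAT2, Bowtie2, RSEM and DESeq2 without versions or roles. No counts were used and depth is unknown. Low values held no common step between libraries (the commonest ratio held at most 9.74% of such genes). Columns and groups were matched by title.

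From the deposited FPKM, log2(FPKM + 1) was computed, a scale that understates changes of low genes. The 17224 genes that averaged 0.1 FPKM or more were compared with limma 3.58.1 (trend) in R 4.3.3, tested on simulated data first, with Benjamini-Hochberg adjustment over all of them. Single values were compared by exact two-sided permutation tests (scipy 1.17.1), whose smallest p is 0.1. The members and gene lists were chosen with earlier results of these data known, and 1 factor of the wider list is not reported here. Named beyond the 8 members were the 3 largest changes in each direction per list, among genes that averaged 1 FPKM or more, and the 2 genes with the highest Pearson r to each member. Promoter windows came from RefSeq (7 of 8 members matched). Alternatives were other pseudocounts, filters and scalings, robust fits, array weights, the replicate block and each library left out.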

Additional observations from a re-analysis of the deposited data

How the results depend on the processing

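Among the 8 factors and EFTUD2, the direction turned only for CEBPA, whose log2 fold change was 0.18 with array weights and ran from -0.67 to 0.20 when single libraries were left out, the highest without EFTUD2 replicate 3. With array weights the count of genes called moved from 0 to 1245 and calls were gained for CEBPB (log2 fold change 0.52), NR1H4 (0.70) and EFTUD2 (1.14). Leaving out 1 library gave 0 to 167 called genes and 2 to 4 members with separated groups, always CEBPB and NR1H4 upward. Separated downward were HNF4A and FOXA1 without control replicate 1 (26.7% of all genes downward and 12.9% upward), FOXA2 and FOXA3 without control replicate 2 (24.0% and 9.76%) and ONECUT1 without EFTUD2 replicate 3 (25.4% and 14.8%). The log2 fold change of EFTUD2 then ran from 1.07 to 1.26, with an adjusted p of 0.028 without EFTUD2 replicate 3. The cause of these changes was not tested. Control and EFTUD2 libraries share replicate numbers, and the labels do not say whether same-numbered libraries were paired. The deviations of same-numbered libraries correlated at -0.299, 0.353 and -0.094. With 3 libraries per group and the offset of EFTUD2 replicate 3, these values cannot settle whether the numbers pair them. With the replicate block, 0 genes were called and the adjusted p of CEBPB and NR1H4 was 0.42 for both. The other 185 comparisons of a result with an alternative were counted as unchanged, a label that allowed small moves. Among them was the count of separated members, 3 without EFTUD2 replicate 3 against 2 with all libraries. The medians of the wider liver factors were also counted so, although their sign could change. The median of the wider liver factors turned from -0.05 to 0.04 with median of ratios scaling, 0.07 with quantile normalization and 0.03 without EFTUD2 replicate 3. The median of all genes tested moved as well, from -0.07 to 0.002, -0.03 and -0.04 in the same order, and lay below that of the list each time. Medians of the lists under other scalings and without EFTUD2 replicate 3 were chosen after seeing the data. The number of reads is unknown, so for genes under 0.1 FPKM no detection limit can be given.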
